A study of Mus musculus with 4 samples.

Results

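The H2A.Z peaks of mouse chromosome 4 were followed from a wild-type to an Anp32e knockout culture of mouse embryonic fibroblasts. They were taken as every peak that either deposited list places on that chromosome, which gave 3163 of the 37667 wild-type peaks and 2258 of the 41912 knockout peaks, or 5421 of 79579 in all. Chromosome 4 was selected from measured values, because it had the lowest ratio of knockout to wild-type peak number (0.714) of the 19 autosomes and was the one where paired peaks were narrower in the knockout. Those whole-chromosome values are therefore a description and support nothing further. Ranks of chromosome 4 beside the other autosomes within classes and bins follow in part from that choice and add no support. The questions here are which of its sites were missing from the knockout list, and how the width of the remaining sites differed with starting width and with the density of sites around them. The other 18 autosomes, pooled, stand beside chromosome 4 throughout, with 33846 wild-type and 38894 knockout peaks.

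H2A.Z is a variant of histone H2A. It replaces the canonical histone in nucleosomes beside transcription start sites and at other regulatory elements, and remodelling complexes of the SWR1 and INO80 families exchange it. Anp32e is a chaperone that binds the H2A.Z-H2B dimer and has been reported to take H2A.Z off chromatin. In a chromatin immunoprecipitation experiment a peak is a stretch where the antibody recovered more DNA than the caller's background. A site missing from a list is one that was not called there, which is not the same as a site without H2A.Z.

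Fibroblasts were grown from embryos of Anp32e+/- intercrosses on a C57BL/6 background, collected at embryonic day 10.5, from torsos without head and internal organs. Wild-type (Anp32e+/+) and knockout (Anp32e-/-) cells were used between passages 5 and 10. Each genotype has 1 H2A.Z library, so no replicate check of any difference exists, no test between genotypes was made, and every value describes these 2 libraries. The labels do not say how many embryos stand behind a library. All positions are on chromosome 4 of build mm9. The lists hold positions only, sequencing depth is therefore unknown, and nothing in them checks the knockout or the cell type. The 2 input libraries, which record background DNA along the chromosomes, were not analysed here, so the DNA content of chromosome 4 in the 2 cultures was not examined, and its peak numbers and widths are not corrected for it. The 95% intervals below (exact Clopper-Pearson for shares, exact order statistics for medians) cover counting error over peaks only and treat neighbouring peaks as independent.

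In the wild-type list, chromosome 4 was rich in H2A.Z sites and its sites were crowded. It carried 20.7 wild-type peaks per Mb, which only 3 of the other autosomes exceeded, against 14.8 knockout peaks per Mb, which 13 exceeded. Of its wild-type peaks, 44.9% had 6 or more other wild-type peaks centred within 50 kb, a share exceeded only on chromosome 15 (50.0%). The median wild-type width was 1629 bp on chromosome 4 (quartiles 1218.5 and 2331 bp) and 1639 bp on the other autosomes. The knockout medians were 1889 and 1878 bp. The median of the chromosome 4 list was thus larger in the knockout although its paired peaks were narrower there, and the sites absent from the knockout list were mostly narrow, as described next.

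A large part of the chromosome 4 sites in the wild-type list had no counterpart in the knockout. A partner was a peak of the other list with at least 1 bp in common. By that rule 1133 wild-type peaks had no knockout partner, or 35.8% (95% interval 34.1 to 37.5%), against 16.9% on the other autosomes (16.5 to 17.3%) and 18.3% of the whole wild-type list. In the reverse direction 228 knockout peaks lacked a wild-type partner, or 10.1% (8.88 to 11.4%), against 29.2% on the other autosomes and 28.1% of the whole knockout list. Over the other 18 autosomes taken singly, the first share ran from 7.84% on chromosome 1 to 29.2% on chromosome 12. The second ran from 12.3% on chromosome 12 to 47.5% on chromosome 1.

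In sequence covered, the missing sites held more than the parts of kept sites that were not covered. Wild-type peaks covered 5.89 Mb of chromosome 4 and knockout peaks 4.59 Mb, of which 4.0 Mb was covered in both. The wild type covered 1.89 Mb that the knockout did not. Of that, 1.44 Mb lay in wild-type-only peaks and 0.450 Mb within peaks that had a partner. The knockout covered 0.589 Mb that the wild type did not, with 0.317 Mb in knockout-only peaks and 0.272 Mb within partnered ones. Thus most of the sequence covered in 1 genotype alone belonged to whole sites in both directions, and the wild-type part was the larger. Whole sites predominated on the other autosomes too. They held 6.64 of the 8.49 Mb covered there in the wild type alone. Of the 28.1 Mb covered there in the knockout alone they held 17.5 Mb, so the knockout part was the larger.

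Starting width separated the missing sites from the kept ones. Wild-type peaks were divided into 5 width classes, each with about 20% of the wild-type peaks of the 19 autosomes, bounded at 1152, 1440, 1874 and 2407 bp. On chromosome 4, 471 of 609 peaks in width class 1, the narrowest, had no knockout partner, which is 77.3% (73.8 to 80.6%). The share was 61.2% in width class 2 and 30.5% in width class 3. It was 10.3% in width class 4 (58 of 563 peaks) and 1.67% in width class 5, where 12 of 719 peaks had no partner (0.865 to 2.90%). Sites missing from the knockout list therefore had a median width of 1193 bp, against 2077.5 bp for sites with a partner.

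The same order held on the other autosomes at a lower level. Their shares from width class 1 to 5 were 47.4, 25.6, 9.09, 1.71 and 0.449%. The share on chromosome 4 was 1.63 times theirs in width class 1, 2.39 times in width class 2, 3.35 times in width class 3 and 6.02 times in width class 4. In width class 5 it was 3.72 times, on 12 peaks. The difference in percentage points was largest in width class 2 (35.6 points) and smallest in width class 5 (1.22 points). In width classes 1 to 4 the chromosome 4 share lay above all 18 other autosomes taken singly, an order its selection favours. The nearest was chromosome 12, with 71.4, 43.8, 18.9 and 5.28%. In width class 5 chromosome 12 (1.82%, 5 of 274 peaks) stood above chromosome 4, and their intervals overlapped.

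A finer division of the chromosome 4 list, into 10 groups by width, gave a gradual decline with no step. Its narrowest group, 575 to 1018 bp wide, lacked a partner in 80.4% of cases (255 of 317). Sites of 1277 to 1432 bp lacked one in 54.9% of cases, close to the 53.7% found for sites of 575 to 1018 bp on the other autosomes. Chromosome 4 sites of 1434 to 1628 bp stood at 36.9%, where sites of the same width elsewhere stood at 12.6%. At 1886 to 2166 bp the shares were 12.4 and 2.13%. From 2492 bp upward the chromosome 4 share was under 2% (4 of 316 and 5 of 317 peaks in the last groups).

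**Figure D1:**
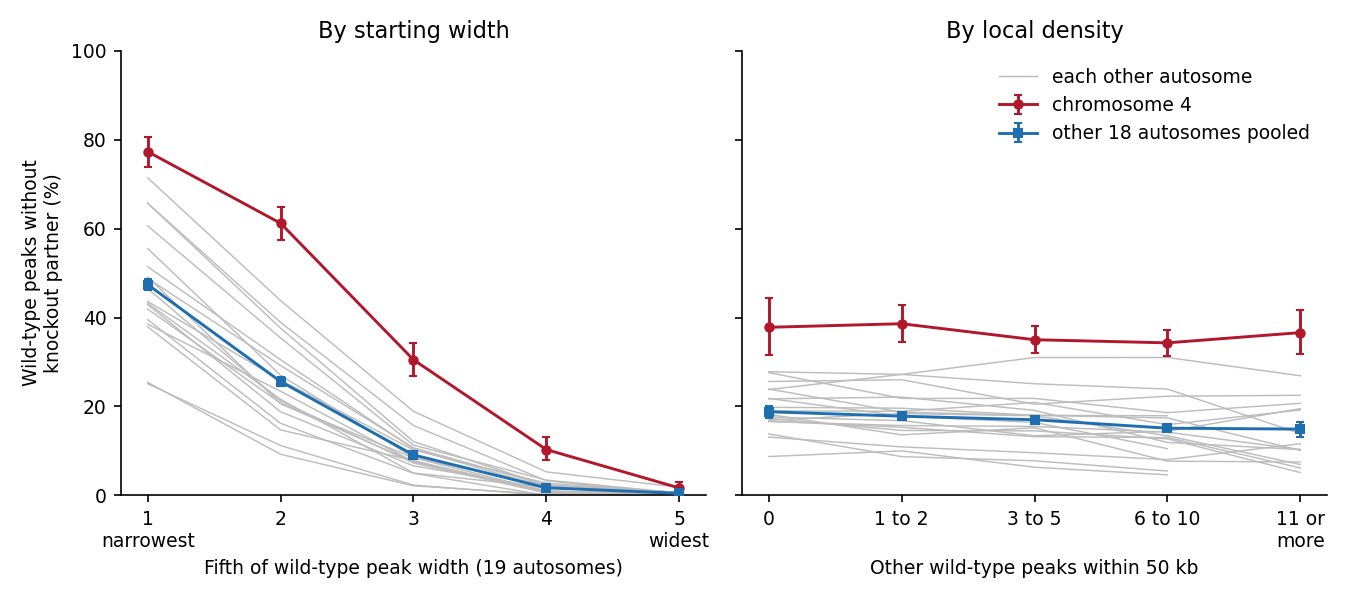
Share of wild-type H2A.Z peaks without a knockout partner (%), by width class (left) and by the number of other wild-type peaks centred within 50 kb (right). Red circles are chromosome 4 and blue squares the other 18 autosomes pooled, with exact 95% intervals; grey lines are single autosomes where a class held at least 20 peaks. On chromosome 4 the share went from 77.3% in the narrowest class to 1.67% in the widest, while over density classes it stayed between 34.3 and 38.6%.

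With partners defined by 1 bp of overlap, the share of missing sites on chromosome 4 differed little with local density. Density was the number of other wild-type peaks centred within 50 kb. Sites with no such neighbour lacked a knockout partner in 37.8% of cases (87 of 230, 95% interval 31.5 to 44.4%). With 1 to 2 neighbours the share was 38.6%, with 3 to 5 it was 35.0%, and with 6 to 10 it was 34.3%. Among the 380 sites with 11 or more neighbours it was 36.6% (31.7 to 41.6%), and the intervals of the sparsest and densest sites overlapped. The direction depended on the definition of a partner: from the sparsest to the densest sites the share was 45.2 to 54.2% where centres had to lie within 250 bp, and 37.4 to 28.7% where a gap of 1 kb was allowed. On the other autosomes the share was 18.8% for sites without a neighbour (17.5 to 20.1%) and 14.9% for those with 11 or more (13.2 to 16.6%), and these intervals were separate. Whether the density dependence itself differed between chromosome 4 and the others was not tested.

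With width held fixed, the share on chromosome 4 was higher in the densest than in the sparsest sites in width classes 2 to 5. In width class 1 the 2 shares were nearly equal. In width class 4 the share without a partner was 7.69% with no neighbour (3 of 39), 8.41% with 1 to 2, 8.61% with 3 to 5, 10.7% with 6 to 10 and 17.1% with 11 or more (12 of 70, 95% interval 9.18 to 28.0%). In width class 2 it went from 52.6% (20 of 38) to 66.3% (59 of 89). In width class 3 the sparsest and densest sites stood at 28.2 and 33.8%, without a steady order between them. In width class 1 there was no such order, with 71.6% in the sparsest and 71.2% in the densest sites and 84.1% between them. In width class 5 none of the 40 sparsest sites was missing and 2 of the 91 densest were (2.20%). The chromosome 4 intervals of the sparsest and the densest sites overlapped in each of the 5 width classes. On the other autosomes the width class 4 shares were 0.654, 1.10, 2.18, 2.23 and 2.02% from the sparsest to the densest sites. A lower share at the sparsest sites of that class was thus not particular to chromosome 4. No test of these differences was made.

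Giving both sets of chromosomes the same mix of widths and densities left their shares nearly where they were. When the shares of its 25 combinations of width and density class were weighted by the numbers of such sites on the other autosomes, the chromosome 4 share was 35.8%, equal at this rounding to the unweighted 35.8%. Weighting the other autosomes by the chromosome 4 mix gave 16.6%, beside their own 16.9%.

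Missing sites lay along the whole chromosome. Of 16 bins of 10 Mb, 15 held at least 20 wild-type peaks, and the share without a knockout partner ran over them from 14.8 to 49.6%, with a median of 37.9%. The lowest was the bin from 20000001 to 30000000, where 4 of only 27 wild-type peaks had no partner (95% interval 4.19 to 33.7%). The highest was the bin from 10000001 to 20000000, next to it, with 65 of 131 peaks (40.8 to 58.5%). The bin with most wild-type peaks, 527 from 130000001 to 140000000, stood at 31.9% (27.9 to 36.0%). On the other autosomes 230 such bins had a median of 17.0% and ran from 2.74 to 44.6%, and 1 of them reached the chromosome 4 median. All but the lowest of the 15 chromosome 4 bins lay above the median of those 230.

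The variation between bins followed the widths of the wild-type peaks in them. Each bin was given the share that the 5 width classes of chromosome 4 would yield for its own peaks. These shares ran from 27.7 to 48.3%, and the interval of the observed share included them in all 15 bins. The observed share differed from them by less than 5 percentage points in 14 bins. The exception was again the bin from 20000001 to 30000000, which was 12.9 points lower, on 27 peaks. Because the class shares come from the same peaks, this comparison describes the fit of widths to position and is no independent check. Across the 15 bins the median wild-type width and the share without a partner were related with r = -0.90 (Pearson) and rho = -0.95 (Spearman), and r was -0.92 without the 2 bins of most extreme width. The bins share 1 pair of libraries, and this relation is a description. With the median number of neighbours the share had an r of -0.19 and a rho of -0.38. When the rates of the other autosomes were applied to the widths of each bin, the observed share was higher in all 15 bins, and its interval included that value only in the bin from 20000001 to 30000000.

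**Figure D2:**
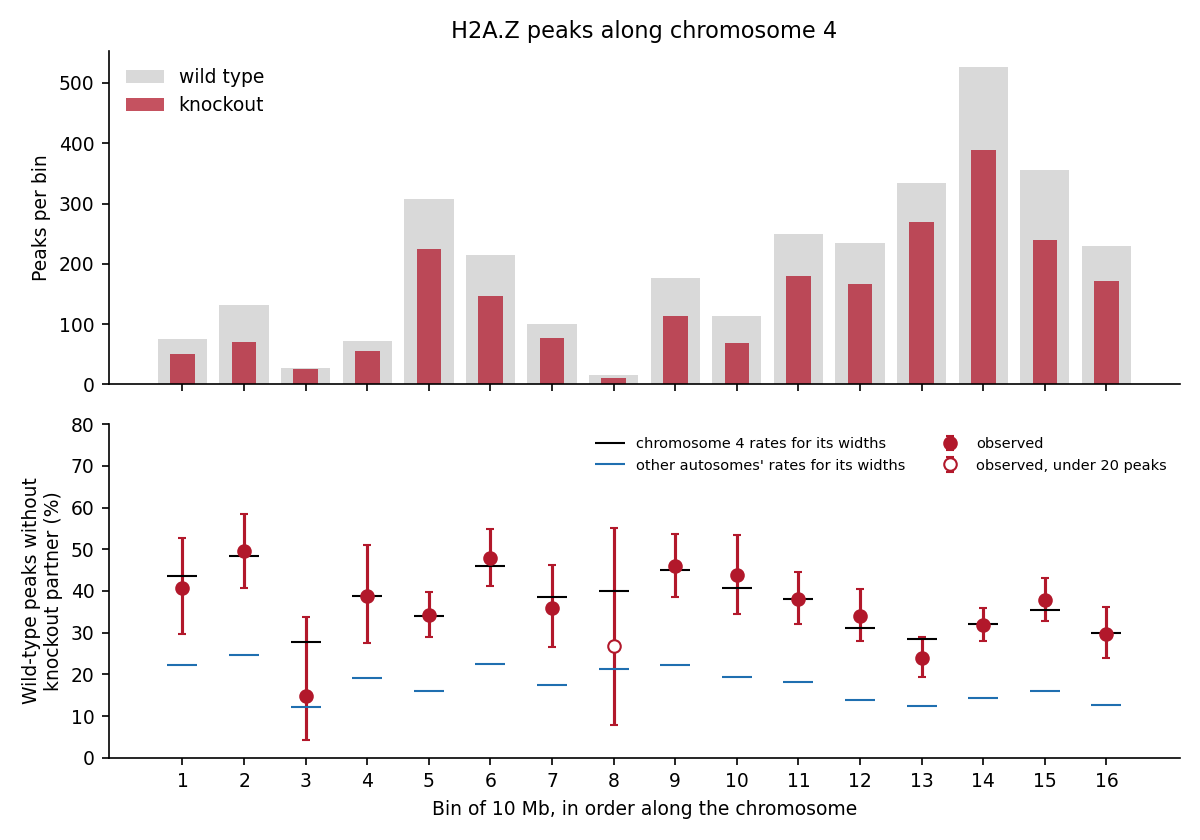
Top, numbers of wild-type (grey) and knockout (red) H2A.Z peaks in the 16 bins of 10 Mb of chromosome 4. Bottom, share of wild-type peaks without a knockout partner (%) with exact 95% intervals, beside the share given by the bin's widths at chromosome 4 rates (black) and at the rates of the other autosomes (blue); the open circle is the bin with 15 peaks. Observed shares ran from 14.8 to 49.6% over the 15 filled circles and lay above the blue marks in all of them.

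Of all wild-type sites, 35.8% were missing on chromosome 4 and 16.9% on the other autosomes. A higher share by itself puts more missing sites side by side. Most missing sites of chromosome 4 stood next to another missing one, although 396 of the 657 runs of missing sites held a single site. In order along chromosome 4, only 34.9% of missing sites stood between 2 sites that had a partner (395 of 1132 with a site on either side), against 59.1% on the other autosomes. The site after a missing one was itself missing in 42.0% of cases (39.2 to 45.0%). After a kept one it was missing in 32.4% (30.3 to 34.4%). The corresponding shares on the other autosomes were 24.0 and 15.4%, so a difference of similar size in percentage points stood at both levels. Width was not held fixed in these values. Runs of 3 or more missing neighbours held 39.1% of the missing sites of chromosome 4 (36.2 to 42.0%) and 16.4% of those on the other autosomes (15.4 to 17.4%). No value expected from the share missing was computed. The difference in runs between the chromosomes therefore cannot show whether missing sites clustered beyond that share.

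The longest run was of 9 wild-type peaks over 305 kb, from 63281430 to 63586574, all between 1237 and 1841 bp wide, with 1 knockout peak elsewhere inside it. Of the next longest, 5 runs held 8 peaks each. The first of these by position reached from 32425019 to 32658030 and had 3 knockout peaks inside it, none touching a wild-type peak. The next, from 46696586 to 46894754, held no knockout peak over 198 kb, and its peaks were 961 to 2874 bp wide. The longest run was 13 on chromosome 8, 9 on chromosome 5 and at most 8 on each of the remaining autosomes.

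On chromosome 4, missing peaks made up a similar share of single peaks and of large clusters. Wild-type peaks of chromosome 4 were joined into clusters across gaps of up to 10 kb, a grouping chosen after the data were seen. Of 44 clusters with 7 or more peaks, none lacked all its peaks in the knockout, which allows a share of up to 8.04%, and 3 kept all of them (6.82%). On the other autosomes 34.8% of such clusters kept all of them (105 of 302). Counts of complete and of wholly absent clusters depend on cluster size and on the share of peaks missing. No expected count was computed, so these counts cannot show whether clusters had a separate trait. Of the 1034 single peaks, 356 were missing (34.4%, 95% interval 31.5 to 37.4%). In the clusters of 7 or more, 36.3% of the peaks were missing (32.0 to 40.9%), close to the share of single peaks. Elsewhere these shares were 17.1 and 13.8%.

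The window of 100 kb with the most missing sites lay from 134500001 to 134600000, with 10 wild-type-only peaks of 1105 to 2226 bp among 19 wild-type and 10 knockout peaks. The window from 107600001 to 107700000 followed, with 8 of its 11 wild-type peaks missing and 3 knockout peaks left. In the window from 140900001 to 141000000, 8 of 21 wild-type peaks were missing, and these were at most 1281 bp wide, against a median of 1547 bp for the kept ones. Another 2 windows also held 8, and position decided which were named. Over all windows the number of knockout peaks per wild-type peak differed little with crowding. It was 0.720 in windows with 1 to 2 wild-type peaks and 0.703 in those with 10 or more.

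Sites missing from the knockout list stood as far from the nearest knockout peak on chromosome 4 as elsewhere. The median distance was 8.33 kb (95% interval 7.50 to 9.38 kb), against 8.23 kb on the other autosomes. Their distance to the nearest other wild-type peak was shorter on chromosome 4, 4.75 against 8.08 kb. Wild-type peaks of all kinds were denser there, 20.7 per Mb against a median of 15.4 over the other autosomes. The distance was not measured for kept sites, so it cannot be called a trait of the missing ones. Within 1 kb of a knockout peak lay 135 of the 1133 (11.9%).

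The 5 widest of the missing sites were 5074 to 3214 bp wide. The first lay from 153618526 to 153623599, with the closest knockout peak 6.03 kb away. The second lay from 44723270 to 44727598 (4329 bp, 5.38 kb away) and the third from 82182266 to 82186262 (3997 bp, 22.5 kb away). The other two were at 128695935 to 128699707 and 41036648 to 41039861. They had 11 and 15 wild-type neighbours within 50 kb, and knockout peaks lay 0.679 and 1.07 kb away. These are exceptions, since only 12 wild-type peaks of width class 5 were missing on the whole chromosome.

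Peaks found on chromosome 4 in the knockout alone were few and narrow, with a median width of 1333 bp. By classes of equal size over knockout widths of the 19 autosomes, 30.9% of the narrowest class (139 of 450) had no wild-type partner, against 62.2% on the other autosomes. In the widest class it was 1 of 387. They lay nearer to wild-type sites than their counterparts elsewhere, at a median of 5.71 kb (4.20 to 7.38 kb) against 10.3 kb (9.90 to 10.6 kb). Wild-type sites were denser on chromosome 4, and their density was not held fixed in this comparison. They were unevenly placed: knockout-only peaks made up 22.6% of knockout peaks from 50000001 to 60000000 (16.1 to 30.3%) and 5.20% from 120000001 to 130000000 (2.87 to 8.58%).

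The widest knockout-only peak stood apart, 3980 bp wide at 104606788 to 104610767, with 1 wild-type peak centred within 50 kb. The next 4 were 2479 to 2260 bp wide and started at 13167790, 54750399, 33821662 and 98175036. The one at 33821662 was the most remote, 147 kb from any wild-type peak, and the one at 98175036 was the closest, 0.183 kb from one.

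Sites kept in both genotypes were compared as one-to-one pairs, in which each peak overlapped exactly 1 peak of the other list. Chromosome 4 had 1930 such pairs, with median widths of 2085.5 bp in the wild type and 1992 bp in the knockout. The median of the difference within pairs, knockout minus wild type, was -32 bp, with a 95% interval from -44 to -17 bp and quartiles of -234 and 123.5 bp, against 230 bp on the other autosomes (226 to 235 bp). The knockout peak was the narrower in 1058 pairs, or 54.8% (52.6 to 57.1%), where 17.8% of pairs were narrower on the other autosomes and 20.2% over the whole lists. Both edges lay inside the wild-type peak in 28.3% of chromosome 4 pairs (26.3 to 30.4%) and outside it in 26.0% (24.0 to 28.0%). These shares were 6.62 and 61.8% on the other autosomes. The shares of pairs inside and beyond the wild-type outline were thus close to each other on chromosome 4, and the remaining pairs, the largest group, were neither.

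Among large differences, narrower knockout peaks were the more frequent on chromosome 4. The knockout peak was narrower by at least 1.5-fold in 99 pairs of chromosome 4, or 5.13% (4.19 to 6.21%), against 0.631% on the other autosomes and 0.918% over the whole lists. It was wider by at least 1.5-fold in 48 pairs, or 2.49% (1.84 to 3.28%), against 12.4% on the other autosomes and 11.7% over the whole lists. Wild-type peaks that overlapped 2 or more knockout peaks numbered 36 on chromosome 4, or 1.14% (0.798 to 1.57%), against 0.541% on the other autosomes and 0.581% over the whole lists. Fusions, in which 1 knockout peak lay over 2 or more wild-type ones, also numbered 36, or 1.59% (1.12 to 2.20%), with an interval that included the 1.95% of the other autosomes and the 1.92% of the whole lists.

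The width difference depended on the starting width. Chromosome 4 pairs that began in width class 1 were wider in the knockout by a median of 248 bp (198 to 331 bp, 123 pairs), from 1041 to 1294 bp. In width class 2 the difference was 91.5 bp (61 to 127 bp). In width class 3 it was -18 bp with an interval of -51 to 13 bp that included 0. In width class 4 it was -47 bp (-70 to -24 bp). In width class 5 it was -154 bp (-196 to -127 bp, 671 pairs), with medians of 2859 bp in the wild type and 2680 bp in the knockout, and 71.8% of those pairs were narrower.

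Ordering pairs by 1 of the 2 widths shifts the difference by construction, towards positive values where that width is small and negative ones where it is large. The narrow classes are in addition those few that kept a partner: the pairs of width class 1 were 20.2% of the wild-type peaks there, and those of width class 5 were 93.3%. On the other autosomes these shares were 47.7 and 94.1%, so the narrow classes were not equally selected on both sides. The other autosomes carry the ordering too, and there the medians from width class 1 to 5 were 392, 294, 212, 188 and 168.5 bp. Chromosome 4 lay below them in every class, and the gap widened with starting width. In each class it also lay below all 18 autosomes taken singly, an order that its selection favours. The lowest of these values were 270, 127, 56.5, 9 and -5 bp, the second on chromosome 6 and the rest on chromosome 12. Ordered by knockout width, the chromosome 4 difference was -61 bp (-95 to -35 bp) in the narrowest class and -28 bp (-64 to 13 bp) in the widest. Ordered by the mean of both widths it was 57 bp (35 to 89 bp) and -111 bp (-146 to -78 bp). Narrow sites on chromosome 4 were thus wider or narrower in the knockout according to which width ordered them, while the sign for the wide ones was negative each time.

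**Figure D3:**
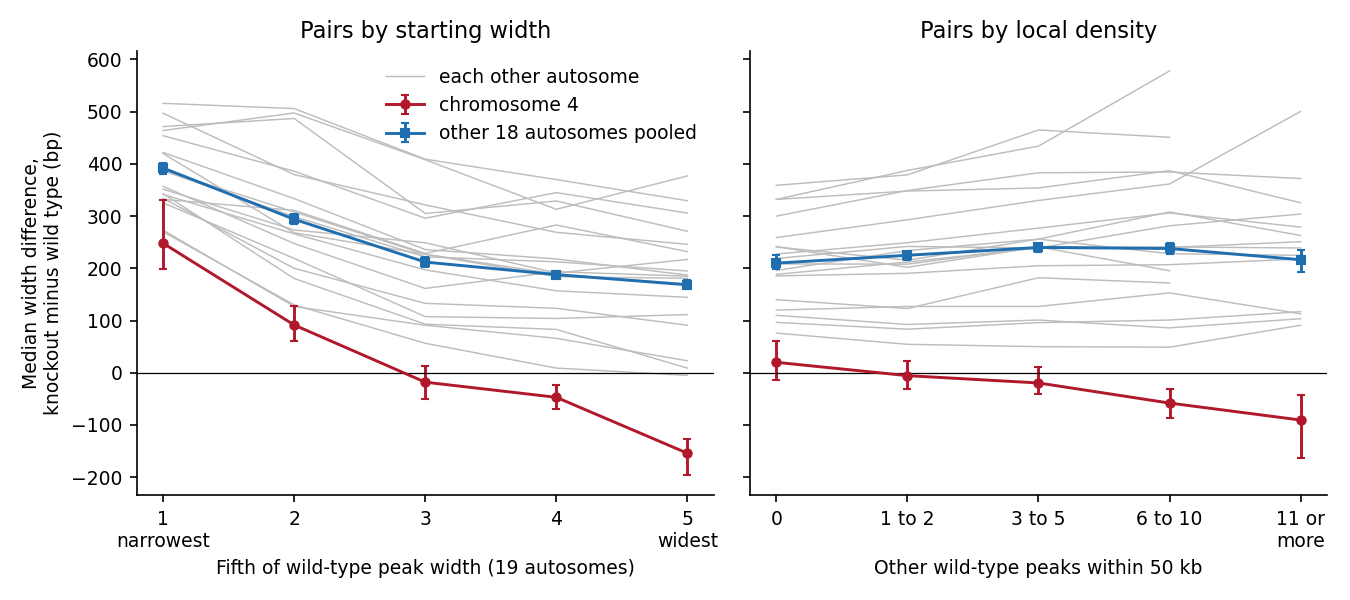
Median width difference of one-to-one pairs, knockout minus wild type (bp), by width class of the wild-type peak (left) and by the number of other wild-type peaks within 50 kb (right), for chromosome 4 (red), the other 18 autosomes pooled (blue) and each of them (grey, at least 20 pairs). Bars are exact 95% intervals of the median. Chromosome 4 went from 248 to -154 bp over the width classes and from 20 to -90.5 bp over the density classes, and lay below every grey line.

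Taken over all widths, paired sites of chromosome 4 in crowded sequence were more often narrower in the knockout. Pairs with no neighbour within 50 kb differed by 20 bp (-14 to 60 bp, 143 pairs), an interval that included 0. The medians were -5.5 bp with 1 to 2 neighbours (-32 to 22 bp) and -19.5 bp with 3 to 5 (-40 to 11 bp). They were -58 bp with 6 to 10 neighbours (-86 to -31 bp) and -90.5 bp with 11 or more (-163 to -42 bp, 212 pairs). The share of pairs that were narrower in the knockout went from 43.4 to 64.2% over these classes. On the other autosomes the medians were 210, 225, 240, 238 and 216.5 bp, without such an order. Their share of narrower pairs was nevertheless highest at the densest sites too. It was 17.3, 17.0, 17.4, 19.1 and 21.3% from the sparsest to the densest class. Starting widths were similar from 1 neighbour upward, with wild-type medians of 2089 to 2115 bp in the chromosome 4 pairs, and 1946 bp in those without a neighbour.

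The dependence on density was clearest in the widest sites. Width classes 1 and 2 showed no steady order, on few pairs. In width class 1 the sparsest sites had 21 pairs (interval 68 to 525 bp) and the densest 11 (-32 to 647 bp). In width class 2 they had 18 pairs (-51 to 236 bp) and 27 pairs (-32 to 159 bp). A dependence in these classes could therefore have gone unseen. From the sparsest to the densest sites, the width class 1 medians were 281, 194, 248, 268 and 216 bp. Those of width class 2 were 35, 43, 114, 126 and 42 bp. Width class 3 went from 31.5 to -45 bp and width class 4 from -12 to -143 bp, without a steady order and with overlapping intervals. In width class 5 the chromosome 4 difference was -60 bp without neighbours (-187 to 15 bp, 40 pairs), -136 bp with 1 to 2, -143 bp with 3 to 5 and -174.5 bp with 6 to 10. With 11 or more neighbours it was -340.5 bp (-567 to -170 bp, 76 pairs), from 2779.5 to 2473.5 bp. The interval of the sparsest sites overlapped that of the densest. On the other autosomes the 5 medians lay between 134 and 177 bp. Of the 6 other autosomes with at least 20 such pairs in the densest class, the lowest median was -21 bp, on chromosome 11. When only peaks under 3000 bp were kept, so that the wild-type medians of the classes lay between 2601.5 and 2677 bp, the densest chromosome 4 sites stood at -268.5 bp (-379 to -87 bp, 46 pairs) and the sparsest at -45.5 bp (-293 to 22 bp, 24 pairs), and these intervals overlapped. The size of the densest value depended on the processing. It was -168 bp where partners needed centres within 250 bp and -556 bp where peaks within 500 bp of each other were merged first. With neighbours counted within 200 kb there was no order: the densest class held 550 of the 671 pairs and stood at -168 bp, and the sparsest, with 9 pairs, at -73 bp.

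Strong narrowing was most frequent in the same sites. In width class 5 with 11 or more neighbours, 18 of 76 knockout peaks were narrower by at least 1.5-fold, or 23.7% (14.7 to 34.8%). With 6 to 10 neighbours it was 21 of 228, or 9.21% (5.79 to 13.7%), and with 3 to 5 it was 15 of 217, or 6.91%. Among the sparsest it was 5 of 40 (12.5%, 4.19 to 26.8%), so the shares were not in order of density. On the other autosomes the shares were lower but rose with density. From the sparsest to the densest class they were 0.815, 1.09, 1.30, 2.38 and 3.56%. Their end intervals, 0.300 to 1.77% and 1.85 to 6.14%, were separate. A higher share at the densest wide sites was thus not particular to chromosome 4. In the densest chromosome 4 pairs of width class 5 the median outward shift was -149.5 bp at the start and -73 bp at the end. These medians were taken separately, and pairs with both edges inside were not counted in this class.

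**Figure D4:**
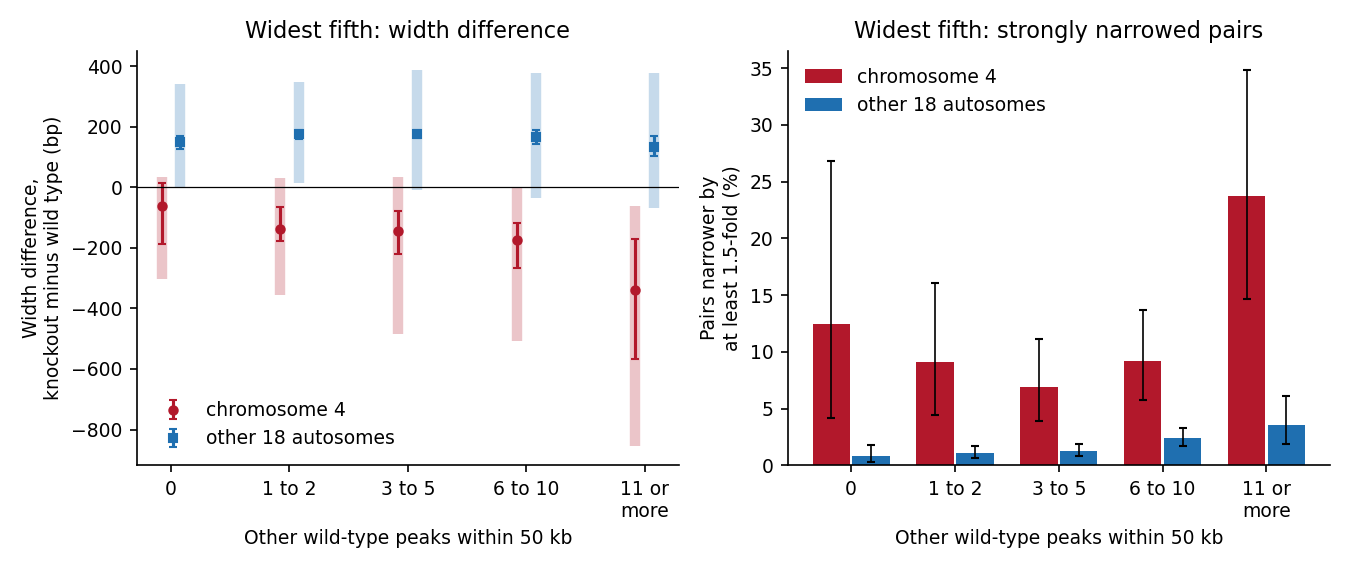
Pairs of width class 5 by the number of other wild-type peaks within 50 kb. Left, median width difference, knockout minus wild type (bp), with exact 95% intervals and quartile ranges (shaded); right, share of pairs narrower in the knockout by at least 1.5-fold (%) with exact 95% intervals. On chromosome 4 (red) the densest class stood at -340.5 bp and 23.7%, and the other autosomes (blue) at 134 bp and 3.56%.

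Single pairs differed on 1 side or on both. The largest decrease was at 129175894 to 129181453, where a wild-type peak of 5560 bp had a knockout partner of 3378 bp from 129176051 to 129179428, trimmed mostly at its end. At 124246350 to 124249889 a peak of 3540 bp had a partner of 1374 bp from 124247541 to 124248914, trimmed at both ends. The third, at 61944502 to 61949173, went from 4672 to 2641 bp, with a partner from 61946609 to 61949249 that was trimmed at its start alone, and it had no wild-type neighbour within 50 kb. The largest increases were at 62403872 to 62404968, from 1097 to 3679 bp, at 53451639 to 53454884, from 3246 to 5103 bp, and at 45265297 to 45266403, from 1107 to 2723 bp. Each of these lay mainly on 1 side: the end in the first and the last, and the start in the second.

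The 3 widest wild-type peaks with a partner differed little in width or were divided, unlike width class 5 as a whole. The widest wild-type peak, 6811 bp at 133307538 to 133314348, had a knockout partner of 6747 bp and 1 wild-type neighbour within 50 kb. The second, 6488 bp at 106579489 to 106585976, had a partner of 6484 bp. The third, 6426 bp at 106530521 to 106536946 with 13 neighbours, overlapped 2 knockout peaks of at most 3206 bp.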

How the data were processed

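H2A.Z ChIP-seq peak lists were analysed for 1 wild-type and 1 Anp32e knockout library. The authors deposited chromosome, start and end of each peak, with no score, height or count. The submitters' processing notes name mm9 as build and, without roles, MACS 1.4.2, HOMER, Bowtie 0.12.8 and CASAVA 1.8.2. Per the file headers, the lists passed through Galaxy. Thresholds, filters and any input subtraction were not given in the sources used here. A deeper or more enriched library usually yields more and wider peaks, and depth is unknown.

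Overlaps, pairs, densities and intervals were computed with scipy 1.17.1, pandas 2.3.3 and numpy 2.4.6 under Python 3.11.15 and drawn by matplotlib 3.10.9. Starts are printed counting from 1. The X chromosome was left out of the pooled autosomes but counts in shares of the whole lists. Width classes were quintiles of wild-type width over the 19 autosomes. Bins and windows were assigned by peak centre. The code was tested on simulated data with known losses and width differences. The members, classes and alternatives were chosen with earlier results of these data known. Regions were named by rule: the 5 widest peaks of each genotype alone, the 3 widest partnered wild-type peaks, the 3 largest decreases and increases, the 3 longest runs, the extreme bins and the 3 windows with most wild-type-only peaks. Other bins and 2 knockout-only contrasts were named after their values were seen. The gene table is on GRCm38, so peaks were given no gene names. Alternatives changed the overlap rule, merging, density radius, bin size, ordering width and reference autosomes.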

Additional observations from a re-analysis of the deposited data

How the results depend on the processing

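Of 80 alternative values, 52 stayed within the main 95% interval, 27 moved out of it and 1 reversed. The weighted share and the differences from the other autosomes had no exact interval of their own. For them the interval width of the plain chromosome 4 share or median was used. Requiring 50% overlap of both peaks, the chromosome 4 shares without partner were 38.1% of wild-type peaks (37.9% weighted to the classes of the other autosomes) and 13.3% of knockout peaks, with 80.8% and 4.87% in the narrowest and widest classes. The other autosomes then stood at 23.2% of wild-type and 33.2% of knockout peaks. Requiring centres within 250 bp, they were 46.9% (46.0% weighted) and 25.6%, with 81.9% and 28.0% in the narrowest and widest classes, 45.2% and 54.2% in the sparsest and densest, and 61.4% in the highest bin, and the pair difference was -8 bp (-21 to 8 bp) overall and -84 bp in the widest class. Under that rule a trimmed or shifted peak counts as missing, and the other autosomes stood at 33.0% of wild-type and 41.7% of knockout peaks. Allowing a gap of 1 kb gave 31.6% (32.1% weighted) and 8.59%, 69.3% in the narrowest class, and 37.4% and 28.7% in the sparsest and densest, the opposite order to the rule on centres. With that gap the other autosomes stood at 14.8% of wild-type and 26.8% of knockout peaks. Merging peaks within 500 bp gave 3.93% and -203 bp in the widest class. A density radius of 200 kb gave 29.7% in the sparsest class, which then held few sites (interval 15.9 to 47.0%), and no steady order of the difference within width class 5. Ordered by mean width the narrowest and widest pairs differed by 57 and -111 bp, and by knockout width by -61 and -28 bp, the reversal. Without chromosomes 1, 13 and 16 the pair difference of chromosome 4 from the other autosomes was -237 bp, beside -262 bp. The overlap alternatives for bins and for pairs by class, the limit of 3000 bp and the clusters were added after seeing the data. The cause was not tested. No paired analysis was possible because there is 1 library for each genotype. Numbers and widths of called peaks vary with sequencing depth and with the DNA content of a chromosome, and neither was examined here.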

Other observations

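The autosomes with the most crowded wild-type sites differed in their shares of missing sites. The share of wild-type peaks with 6 or more neighbours within 50 kb was highest for chromosome 15 (50.0%), followed by chromosomes 4 (44.9%), 11 (43.2%) and 17 (43.0%). Their shares without a knockout partner were 15.9, 35.8, 22.5 and 21.0%, where the median of the 18 autosomes other than chromosome 4 was 16.1%, so 3 of these 4 lay above it and chromosome 15 did not. On chromosome 15 the share of wild-type peaks without a knockout partner was 21.7% at sites without a neighbour (95% interval 15.5 to 28.9%) and 10.3% at those with 11 or more (7.22 to 14.1%), where chromosome 4 had 37.8 and 36.6% and chromosome 11 had 25.6 and 22.5%. Chromosome 12, less crowded (19.7%) but with the overall share nearest to chromosome 4 (29.2%), had 27.8 and 26.9%. In the densest class the pairs of chromosome 15 were wider in the knockout by a median of 325.5 bp (241 to 462 bp), those of chromosome 11 by 103.5 bp (55 to 148 bp) and those of chromosome 12 by 91 bp (8 to 199 bp, 44 pairs), whereas those of chromosome 4 differed by -90.5 bp. These chromosomes were chosen after their values were seen, and none of these differences was tested.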
